A study of Mus musculus with 9 samples.

Results

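The genes described here belong to the synthesis, binding and sensing of retinoids, the vitamin A derivatives, or are enzyme relatives listed with them (Aldh1a7 and Akr1c18). The 9 members were picked by symbol from the array's probe table: Aldh1a1, Aldh1a2, Aldh1a3 and Aldh1a7 (aldehyde dehydrogenases), Akr1c18 (an aldo-keto reductase), Rarb and Rarg (retinoic acid receptors), and Crabp1 and Crabp2 (cellular retinoic acid-binding proteins). They are 9 of 19937 named genes, and each had 1 array row. The list was drawn up with results of these same arrays known, so the members' values are given as a description and were not tested. Mouse cells at 3 stages were compared, 3 arrays per stage: passage 4 fibroblasts taken from mice made with TSKM iPS cells, the same kind of fibroblasts after 3 days of doxycycline (TSKM-3D, the intermediate stage), and an iPS line made with the same factors, at passages 10 to 15. TSKM stands for Tet1, Sox2, Klf4 and c-Myc, which doxycycline switches on, and all samples have the strain label OG2-GFP/Rosa26-M2rtTA. Doxycycline came with a switch of medium, feeder medium being replaced by ES medium that holds LIF, and the effects of the 2 cannot be told apart at day 3. Feeder cells (MEFs treated with mitomycin C) lay under the iPS colonies and were thinned out by 0.5 h of plating before RNA was taken. The labels do not call the 3 arrays of a stage separate cultures, so spreads and p-values describe these arrays and may be technical.

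Retinol is oxidised to retinaldehyde in a reversible step, and retinaldehyde is oxidised to retinoic acid in a step that is not reversed. Aldh1a1, Aldh1a2 and Aldh1a3 encode the enzymes of the second step. Retinoic acid binds RAR and RXR receptor pairs on DNA and is broken down by CYP26 enzymes. In embryonic stem cells it is best known as an agent that drives differentiation.

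The sequences before the transcript starts of 4 members are shown because 3 of these genes were high at day 3 alone and the fourth carries a known retinoic acid response element. They are bases -120 to -1 before the start, from RefSeq on GRCm38.p6, 5′ to 3′ on the gene's strand. In Rarb (chr14:16575477-16575596, minus strand) the capitals mark a direct repeat with a gap of 5 bases, the element through which retinoic acid receptors act on this gene. In Aldh1a1 (its second RefSeq start, chr19:20601848-20601967, plus strand) and Aldh1a7 (chr19:20727557-20727676, minus strand) the capitals mark a CCAAT box and an octamer, ATGCAAAT. Akr1c18 (chr13:4150647-4150766, minus strand) held neither and has no capitals.
Rarb: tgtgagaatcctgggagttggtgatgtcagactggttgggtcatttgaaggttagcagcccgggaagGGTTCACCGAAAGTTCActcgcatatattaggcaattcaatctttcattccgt
Aldh1a1: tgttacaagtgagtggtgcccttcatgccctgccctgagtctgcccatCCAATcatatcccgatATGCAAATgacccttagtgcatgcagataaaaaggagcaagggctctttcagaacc
Aldh1a7: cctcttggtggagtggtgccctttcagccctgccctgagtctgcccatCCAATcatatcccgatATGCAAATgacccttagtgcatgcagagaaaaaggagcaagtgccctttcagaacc
Akr1c18: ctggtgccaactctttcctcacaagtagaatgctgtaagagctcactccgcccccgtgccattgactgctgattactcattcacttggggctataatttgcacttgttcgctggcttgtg
Compared without gaps, the Aldh1a1 and Aldh1a7 stretches had the same base at 105 of 120 positions (87.5%), with an unbroken shared run of 65 bases at -94 to -30. The 2 genes are close paralogs. Whether their array probes pick up each other's transcript was not tested, so their separate levels are uncertain.

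Windows of 300 bases around the start (250 before, 50 after) were matched for 7 of the 9 members, 9 windows in all, and were searched on both strands. The direct repeat, GGTTCA followed after 5 bases of any kind by AGTTCA, was in 2 of 32851 RefSeq windows (0.00609%), and in 1 member, Rarb, at -53 to -37. The octamer ATGCAAAT was in 1.74% of all windows and in 3 member windows: Aldh1a1 and Aldh1a7, both at -56 to -49, and Aldh1a2 at -84 to -77. CCAAT was in 37.4% of windows, TATAAA in 13.6%, the AP-1 element TGACTCA in 5.2%, the antioxidant response core TGACNNNGC in 12.4% and the nuclear receptor site AGGTCA in 16.3%. The AP-1 element and the antioxidant core begin with the same 4 letters, but no matches overlapped in the member windows. TGACTCA occurred at the first RefSeq start of Aldh1a1, TGACNNNGC in Aldh1a2, and AGGTCA in Rarg and, at 28 to 33 past the start, in Akr1c18. TATAAA occurred in Aldh1a7, at -244 to -239, and CCAAT in Aldh1a2, Aldh1a7 and at the second start of Aldh1a1. A match is a description of the letters only.

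**Figure D1:**
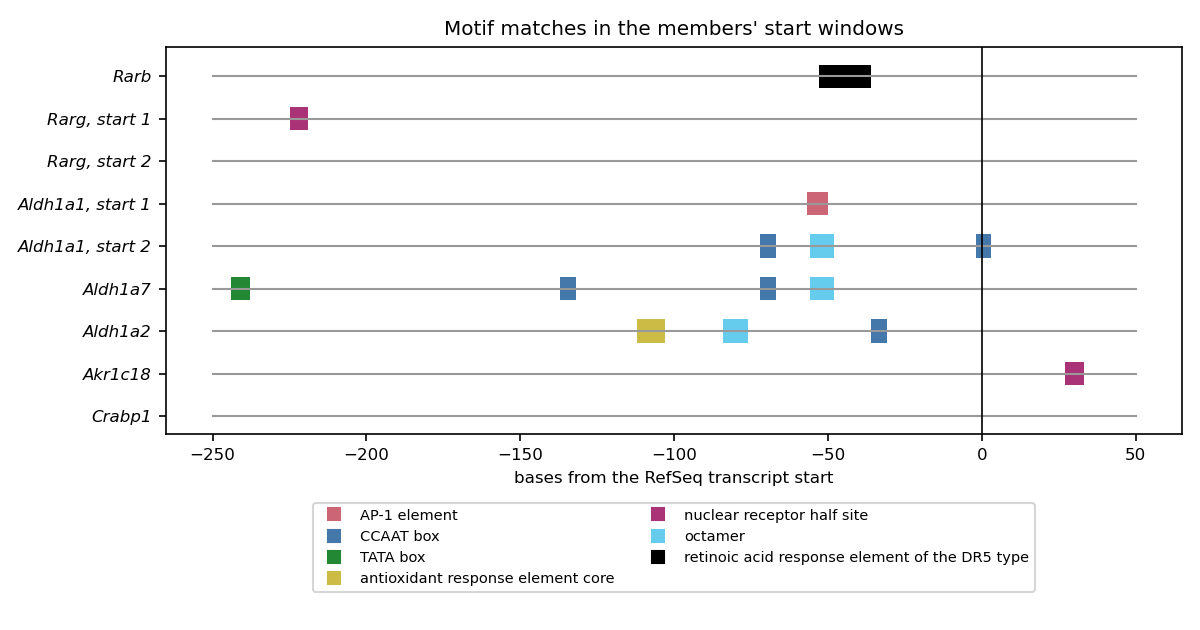
Motif matches on either strand in the RefSeq start windows of 7 members. The x axis is the distance in bases from the transcript start (250 before to 50 after), each line is 1 window, and colours mark the motifs. The octamer and a CCAAT box stand at the same distances in Aldh1a7 and the second start of Aldh1a1, and the direct repeat is in Rarb.

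The arrays grouped by stage. Across genes, Pearson correlations ran from 0.9978 to 0.9984 among fibroblast arrays, 0.991 to 0.996 among TSKM-3D arrays and 0.995 to 0.996 among iPS arrays. Array medians lay between 6.01 and 6.23 on the log2 scale. TSKM-3D array 2 had the narrowest spread of values (SD 2.23 over all rows, against 2.27 and 2.31 on TSKM-3D arrays 1 and 3). The cell type label of fibroblast array 3 names 3-day induced cells, against its title, source and passage label, and it was kept as a fibroblast array. All 10 measured pluripotency markers were called higher in iPS than in TSKM-3D samples. A set of 13 bright unnamed rows was picked for low row numbers once values had been seen. It was higher on TSKM-3D than on fibroblast arrays, by a median of 1.98 on the log2 scale. The median rise was 2.19 from fibroblast to iPS arrays but 0.23 from TSKM-3D to iPS arrays. The part of this difference in the results was not tested.

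Aldh1a1 and Aldh1a7 were high at day 3 and low before and after. Aldh1a1, the cytosolic retinaldehyde dehydrogenase, read 5.32, 5.04 and 5.29 on fibroblast arrays, 9.24, 8.84 and 9.39 on TSKM-3D arrays, and 5.12, 5.13 and 5.10 on iPS arrays (log2 expression values throughout). The TSKM-3D arrays stood clear of all others, while the fibroblast and iPS arrays overlapped. The TSKM-3D mean of 9.16 ± 0.28 was 15.4-fold above the fibroblast mean of 5.22 ± 0.15 (SD, n = 3 each; log2 difference 3.94 ± 0.13 SE). The iPS mean of 5.12 ± 0.02 was 16.5-fold below the TSKM-3D mean. Aldh1a7, a rodent relative of Aldh1a1 that has been reported to lack activity on retinaldehyde, read 4.30, 4.21 and 4.21 on fibroblast arrays, 9.81, 9.52 and 9.83 on TSKM-3D arrays, and 4.19, 4.26 and 4.39 on iPS arrays. The pattern was that of Aldh1a1, with a wider gap. Its TSKM-3D mean was 44.6-fold above the fibroblast mean (log2 difference 5.48 ± 0.10 SE), and its iPS mean was 43.6-fold below the TSKM-3D mean. Outside day 3 the row was dim: it lay at percentiles 19.9 to 21.2 of all rows on fibroblast arrays, 89.2 to 90.9 on TSKM-3D arrays and 16.9 to 19.8 on iPS arrays. Signal over background was not given, so the size of these folds is uncertain.

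Akr1c18 had the highest day-3 value relative to both other stages of any named gene. It encodes the hydroxysteroid dehydrogenase that reduces progesterone, best known from the rodent ovary at the end of pregnancy, and it is not a classical retinoid enzyme. Akr1c18 read 4.64, 4.80 and 4.71 on fibroblast arrays, 10.56, 9.68 and 10.81 on TSKM-3D arrays, and 4.69, 4.54 and 4.05 on iPS arrays. At the other stages the row was dim, at percentiles 26.4 to 29.1 on fibroblast arrays and 15.1 to 24.0 on iPS arrays. The size of the Akr1c18 folds is therefore uncertain. TSKM-3D array 2 was the lowest of its group for Akr1c18, Aldh1a1 and Aldh1a7 alike. The TSKM-3D mean of 10.35 ± 0.60 was 49.6-fold above the fibroblast mean of 4.72 ± 0.08 (SD, n = 3 each; log2 difference 5.63 ± 0.25 SE), and the iPS mean of 4.43 ± 0.34 was 60.6-fold below it. Without TSKM-3D array 2 the log2 differences between TSKM-3D and fibroblasts were 5.97 for Akr1c18, 5.58 for Aldh1a7 and 4.10 for Aldh1a1. Without fibroblast array 3 they were 5.63, 5.47 and 3.98. At day 3, 291 genes were at least 2-fold above both other group means, and 16 genes at least 8-fold. Akr1c18, Aldh1a7 and Aldh1a1 were at ranks 1, 2 and 6 by that excess. The ranks are a description, since the members were chosen with results of these arrays known.

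Aldh1a2 and Aldh1a3 were lower at day 3 than in fibroblasts. Aldh1a2, the main retinaldehyde dehydrogenase of the early embryo, read 6.15, 6.38 and 6.62 on fibroblast arrays, 5.22, 5.35 and 5.16 on TSKM-3D arrays, and 5.93, 6.03 and 6.23 on iPS arrays. The TSKM-3D arrays were the lowest, and the iPS and fibroblast arrays overlapped. Its TSKM-3D mean lay 2.2-fold below the fibroblast mean (log2 difference -1.14 ± 0.12 SE), and its iPS mean 1.77-fold above the TSKM-3D mean. Aldh1a3, a retinaldehyde dehydrogenase of eye and nasal development, read 8.08, 8.11 and 8.16 on fibroblast arrays, 6.63, 7.09 and 6.62 on TSKM-3D arrays, and 7.09, 6.86 and 7.12 on iPS arrays. All fibroblast arrays were higher than all others, and the iPS and TSKM-3D arrays overlapped. The log2 difference was -1.33 ± 0.12 SE between TSKM-3D and fibroblasts and -1.09 ± 0.12 SE between iPS and fibroblasts.

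The receptors differed less. Rarb, itself a classical target of retinoic acid through the repeat shown above, read 5.71, 5.75 and 5.57 on fibroblast arrays, 5.57, 5.57 and 5.38 on TSKM-3D arrays, and 5.57, 5.57 and 5.48 on iPS arrays. All stages overlapped, and 4 of the 9 arrays, from all stages, held exactly the same value of 5.57, so these readings carry little information on differences. The row lay at percentiles 37.5 to 45.0 on all arrays. Rarg, a receptor prominent in skin and cartilage, read 9.05, 8.91 and 8.88 on fibroblast arrays, 7.96, 7.96 and 7.99 on TSKM-3D arrays, and 7.83, 8.21 and 8.21 on iPS arrays. The fibroblast arrays were the highest, and the iPS and TSKM-3D arrays overlapped. Rarg lay just inside the 2-fold line at day 3 (log2 difference -0.98 ± 0.10 SE, against -0.86 between iPS and fibroblasts). With array medians set equal it passed that line in both comparisons (-1.04 and -1.03), and at day 3 also without fibroblast array 2 (-1.001) or 3 (-1.02).

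Both binding proteins read lower on all iPS arrays than on any array of the earlier stages. Such separation is given for members as a description, and its share over all genes was not counted. It also occurred at small differences, as for Aldh2 between TSKM-3D and fibroblasts (log2 difference 0.10). Crabp1, which holds retinoic acid in the cytoplasm, read 13.06, 13.01 and 13.00 on fibroblast arrays, 12.29, 12.43 and 12.34 on TSKM-3D arrays, and 9.03, 9.13 and 9.04 on iPS arrays. The 3 stages did not overlap, and the levels ranked fibroblast, TSKM-3D, iPS, highest first. In fibroblasts the row was among the brightest of the array, at percentiles 99.8 to 99.9. The iPS mean was 9.74-fold below the TSKM-3D mean and 15.5-fold below the fibroblast mean (log2 difference -3.96 ± 0.07 SE). Crabp2, which hands retinoic acid to the receptors, read 8.35, 8.36 and 8.29 on fibroblast arrays, 8.92, 8.86 and 8.96 on TSKM-3D arrays, and 6.32, 6.68 and 6.26 on iPS arrays. It was highest at day 3 and lowest in iPS cells, with no overlap between stages. The log2 difference was 0.58 ± 0.10 SE between TSKM-3D and fibroblasts, -2.49 ± 0.10 between iPS and TSKM-3D, and -1.91 ± 0.10 between iPS and fibroblasts. Fibroblast markers moved beside these values: of 11, 7 were lower and 1 higher in the iPS than in the TSKM-3D group. Their shares were 63.6% and 9.09%, against 8.57% and 6.48% of all genes. The list's mean log2 level was 11.27 to 11.34 on fibroblast arrays, 9.90 to 9.96 on TSKM-3D arrays and 8.49 to 8.66 on iPS arrays. The lowest iPS mean was that of Lum at 4.48, a dim reading at percentiles 17.1 to 24.8 of all rows. Lum already read 4.11 in TSKM-3D cells. The 1 marker called higher was Dcn, at 7.07 in TSKM-3D and 8.53 in iPS cells. Col1a1 still read 11.47 in iPS cells, which the labels describe as grown on feeder fibroblasts. How much feeder RNA or the number of fibroblasts contributed was not tested, and in bulk RNA fewer cells of a type and less RNA per cell cannot be told apart.

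**Figure D2:**
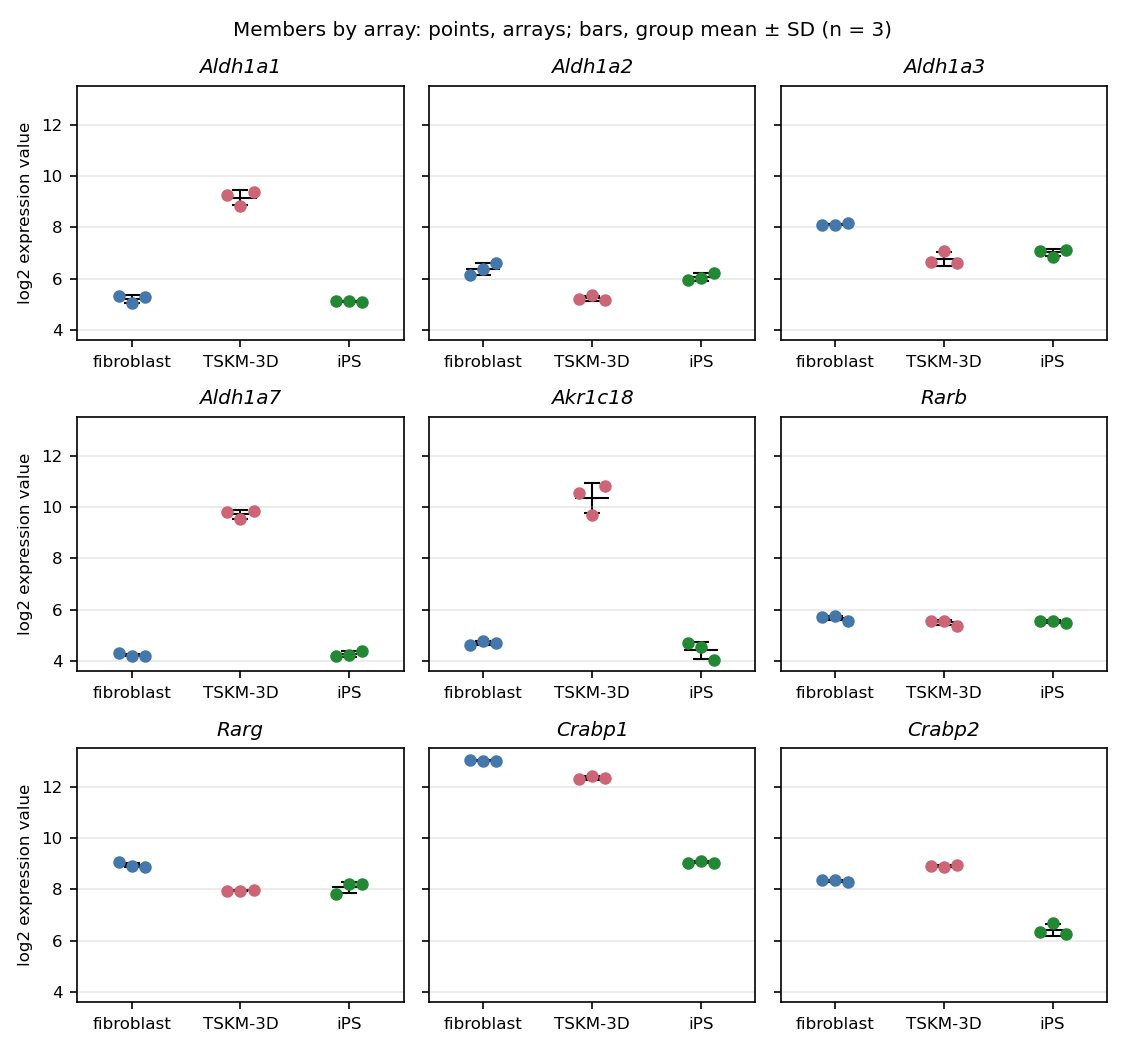
Log2 expression values of the 9 members (y axis, 1 panel per gene) in fibroblast, TSKM-3D and iPS samples. Points are single arrays and black bars the group mean ± SD (n = 3). Aldh1a1, Aldh1a7 and Akr1c18 read 8.84 to 10.81 on TSKM-3D arrays and at most 5.32 elsewhere, while Crabp1 and Crabp2 were lowest on iPS arrays.

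Counted over the members, 3 were at least 2-fold higher and 2 at least 2-fold lower in TSKM-3D cells than in fibroblasts, where 3.25% of all named genes were higher by that rule and 7.58% lower (10.8% in either direction). Between iPS and TSKM-3D, 0 were higher and 5 lower (6.48% and 8.57% of all genes, 15.1% in either direction), with no test behind these counts. Between iPS and fibroblasts, 0 were higher and 3 lower (7.63% and 13.8% of all genes, 21.5% in either direction). Nothing is read from these counts, since the members were chosen with these comparisons known. The median log2 difference of the 9 members was -0.17, -2.49 and -0.32 in the 3 comparisons, in that order, beside 0.05, -0.01 and 0.05 over all genes.

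**Figure D3:**
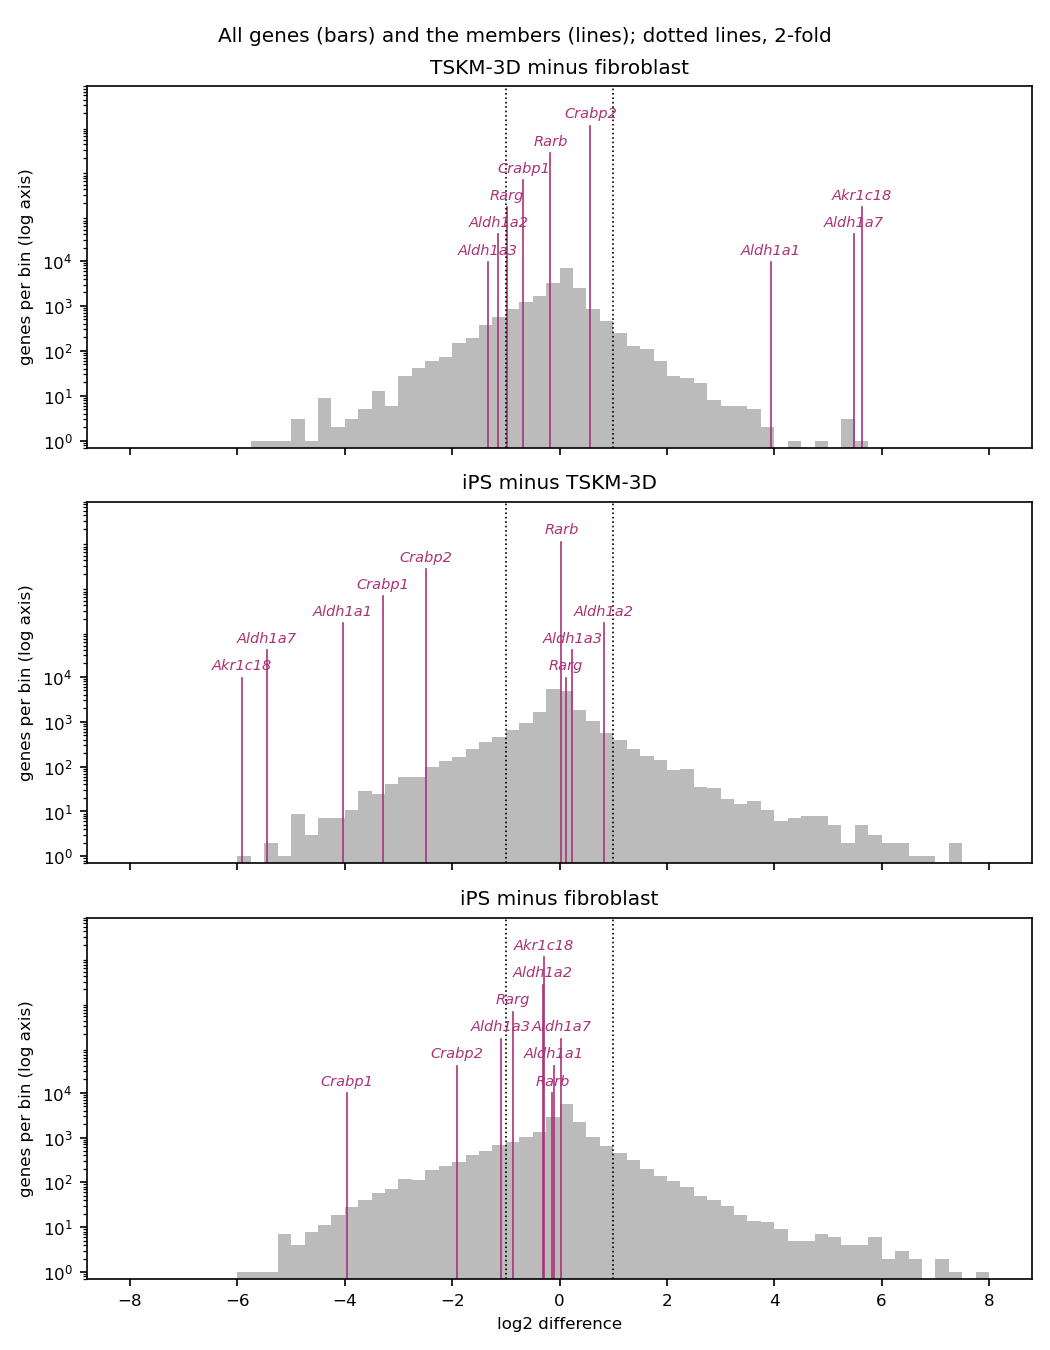
Log2 differences of all 19937 named genes (grey bars, genes per bin on a log axis, bin width 0.25) in the 3 comparisons, with the 9 members as labelled lines and the 2-fold limits dotted. The height of a member's line has no meaning. In the top panel Akr1c18 (5.63), Aldh1a7 (5.48) and Aldh1a1 (3.94) lie in the upper tail, and in the middle panel they lie in the lower tail.

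The genes nearest in pattern were found over the 9 arrays, as the smallest Euclidean distance between log2 values after each gene was centred on its own mean, among 18611 genes without clone or predicted names. The points share 3 stages, so this is a description. Nearest to Aldh1a1 were Cd200r2 (distance 0.52), Gna14 (0.73) and Fndc3c1 (1.05). Nearest to Aldh1a7 were Sostdc1 (0.92), Akr1c18 (1.07) and Edn1 (1.21), the endothelin gene. Akr1c18 had Aldh1a7 as its nearest gene, then Sostdc1 (1.64) and Edn1 (2.00). Nearest to Crabp1 were the growth factor gene Tgfb3 (0.22), Zfp521 (0.35) and Parva (0.41).

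The rest of the retinoid pathway was examined by a list of 53 names, of which 49 had a row naming that gene alone and 4 were not analysed here. At day 3 against fibroblasts 2 of the 49 were called higher, 9 lower and 38 neither (limma, at least 2-fold with a Benjamini-Hochberg adjusted p under 0.05). By the same rule 3.25% of all genes were called higher and 7.58% lower, and the list's shares were 4.08% and 18.4%. The list's median log2 difference was 0.00, beside 0.05 over all genes. The genes called higher both oxidise retinol. Rdh10, the main embryonic retinol dehydrogenase, read 10.04, 9.999 and 10.04 on TSKM-3D arrays, against 8.85, 8.76 and 8.78 on fibroblast arrays (log2 difference 1.23 ± 0.07 SE; adjusted p = 8.61e-08). Adh7, the retinol-active class of alcohol dehydrogenase, read 10.23, 10.19 and 10.35 on TSKM-3D arrays, against 8.31 on all 3 fibroblast arrays (1.94 ± 0.08; adjusted p = 7.65e-09). The exactly equal fibroblast readings of Adh7 may hide part of its spread. For both genes the groups were well apart, but Rdh10 did not pass a test against 2-fold (treat, adjusted p = 0.0734).

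Of the 28 measured genes of the retinol steps, 5 fell at day 3 (17.9%, against 7.58% of all genes). Dhrs3, which reduces retinaldehyde back to retinol and is itself induced by retinoic acid, read 7.21, 7.44 and 7.15 on TSKM-3D arrays, against 9.21, 9.18 and 9.04 on fibroblast arrays (log2 difference -1.87 ± 0.10 SE; adjusted p = 4.04e-08). Dhrs4, a retinaldehyde reductase, changed by -1.43, Dhrs9, a retinol dehydrogenase, by -1.51, and Dgat1, an acyltransferase that also esterifies retinol, by -1.12. The fifth was Dhrs7 at -1.01, named after its value was seen. After quantile normalization Dgat1 (-0.99) and Dhrs7 (-0.87) were no longer called, nor was Dhrs7 without fibroblast array 3 (-0.88) or TSKM-3D array 2 (-0.91). Lrat, which makes retinyl esters for storage, read 5.08 in TSKM-3D cells and 5.03 in fibroblasts (adjusted p = 0.67).

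Among nuclear receptors and cofactors 3 of 9 measured genes fell at day 3 and 0 rose, and 5 had an unadjusted limma p under 0.05 (33.3% lower, against 7.58% of all genes). Rara, the most widely expressed retinoic acid receptor, read 7.21, 7.13 and 7.19 on TSKM-3D arrays, against 8.69, 8.61 and 8.58 on fibroblast arrays (log2 difference -1.45 ± 0.08 SE; adjusted p = 4.43e-08). Its partner Rxra changed by -1.32 ± 0.08 (adjusted p = 1.04e-07), and Ppard, a receptor that can receive retinoic acid from Fabp5, by -1.48 ± 0.08 (adjusted p = 3.33e-08). Rxrb and Rxrg, the other RXR genes, differed by 0.10 and -0.02 (adjusted p = 0.318 and 0.939). Fabp5, the fatty acid-binding protein that carries retinoic acid to Ppard, read 9.55 in TSKM-3D cells and 10.67 in fibroblasts (-1.12 ± 0.08; adjusted p = 2.55e-07), but it was not called with the mean of its 2 rows (-0.82) or after quantile normalization (-0.99). It was the 1 called gene among 9 uptake and carrier genes. Stra6, the cell surface retinol transporter, differed by 0.00 and Rbp4, the blood carrier of retinol, by -0.65 (adjusted p = 0.982 and 0.000247), the second short of 2-fold. Stra6 held exactly the same value on all 3 fibroblast arrays, which may hide part of its spread. Macrophage markers also fell in this comparison, 3 of 10 (30%, against 7.58% of all genes). Their mean log2 level was 5.47 to 5.58 on TSKM-3D arrays and 6.63 to 6.74 on fibroblast arrays. Of 11 fibroblast markers 5 fell and 1 rose (45.5% and 9.09%, against 7.58% and 3.25% of all genes). Lum and Dcn, both proteoglycan genes, fell most, by -5.51 and -4.44, and Twist1 rose by 1.24. Col1a1, Col1a2, Col3a1, Vim and Prrx1 changed by 0.11, 0.60, 0.59, 0.02 and -0.87 and were not called. The part of either marker list in the falls of these pathway genes was not tested.

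The breakdown enzymes were not called at any stage. Cyp26a1, whose transcript rises strongly with retinoic acid in many cells, read 4.86 in fibroblasts, 4.80 in TSKM-3D cells and 5.15 in iPS cells. Cyp26b1 read 6.91, 7.11 and 6.67 and Cyp26c1 6.17, 6.12 and 6.26 at the same stages. Of these 3 genes 0 were called in limma, with 0 at an unadjusted p under 0.05 at day 3 against fibroblasts and 2 in iPS cells against day 3. Adjusted p-values at day 3 were 0.784, 0.245 and 0.705.

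Between iPS cells and day 3, 2 of the 49 pathway genes rose and 4 fell (limma, as above), 4.08% and 8.16%, against 6.48% and 8.57% of all genes. Both retinol oxidisers that had been called higher at day 3 were among the falls. Adh7 read 6.16, 6.32 and 6.12 on iPS arrays, against 10.23, 10.19 and 10.35 on TSKM-3D arrays (log2 difference -4.06 ± 0.08 SE; adjusted p = 2.16e-11), and Rdh10 read 7.20, 7.32 and 7.22, against 10.04, 9.999 and 10.04 (-2.78 ± 0.07; adjusted p = 8.94e-11). No iPS array came near a TSKM-3D array for either gene. Fabp5 changed by -2.44 ± 0.08 (adjusted p = 3.3e-10) and Rdh14, a member of the retinol dehydrogenase family, by -1.48 ± 0.16. The rises were in Ncoa3, a nuclear receptor coactivator, at 2.64 ± 0.10 (10.27 in iPS cells and 7.64 at day 3; adjusted p = 1.33e-09), and in Rlbp1, a retinaldehyde carrier of the retina, at 1.32 ± 0.14 (adjusted p = 7.83e-06). Dhrs3 and Rara differed by 0.48 and 0.47 and Rxra and Ppard by -0.40 and -0.60, all short of 2-fold (adjusted p at most 0.00148).

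Between iPS cells and the fibroblasts at the start, 2 of the 49 rose and 9 fell (4.08% and 18.4%, against 7.63% and 13.8% of all genes). The list's median was -0.04, beside 0.05 over all genes. Among the falls were Fabp5 (-3.56 ± 0.08 SE), Adh7 (-2.11 ± 0.08), Ppard (-2.08 ± 0.08), Dhrs9 (-1.99 ± 0.18), Rxra (-1.72 ± 0.08), Rdh10 (-1.55 ± 0.07) and Dhrs3 (-1.39 ± 0.10), with adjusted p at most 1.54e-06 (limma). Ncoa3 and Rlbp1 rose, by 1.82 and 1.63. Rara lay just inside the 2-fold line at -0.98 and was called with array medians set equal (-1.15), without fibroblast array 3 (-1.01) or without iPS array 2 (-1.03). Dhrs4 was called at -1.07 but not after quantile normalization (-0.91).

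**Figure D4:**
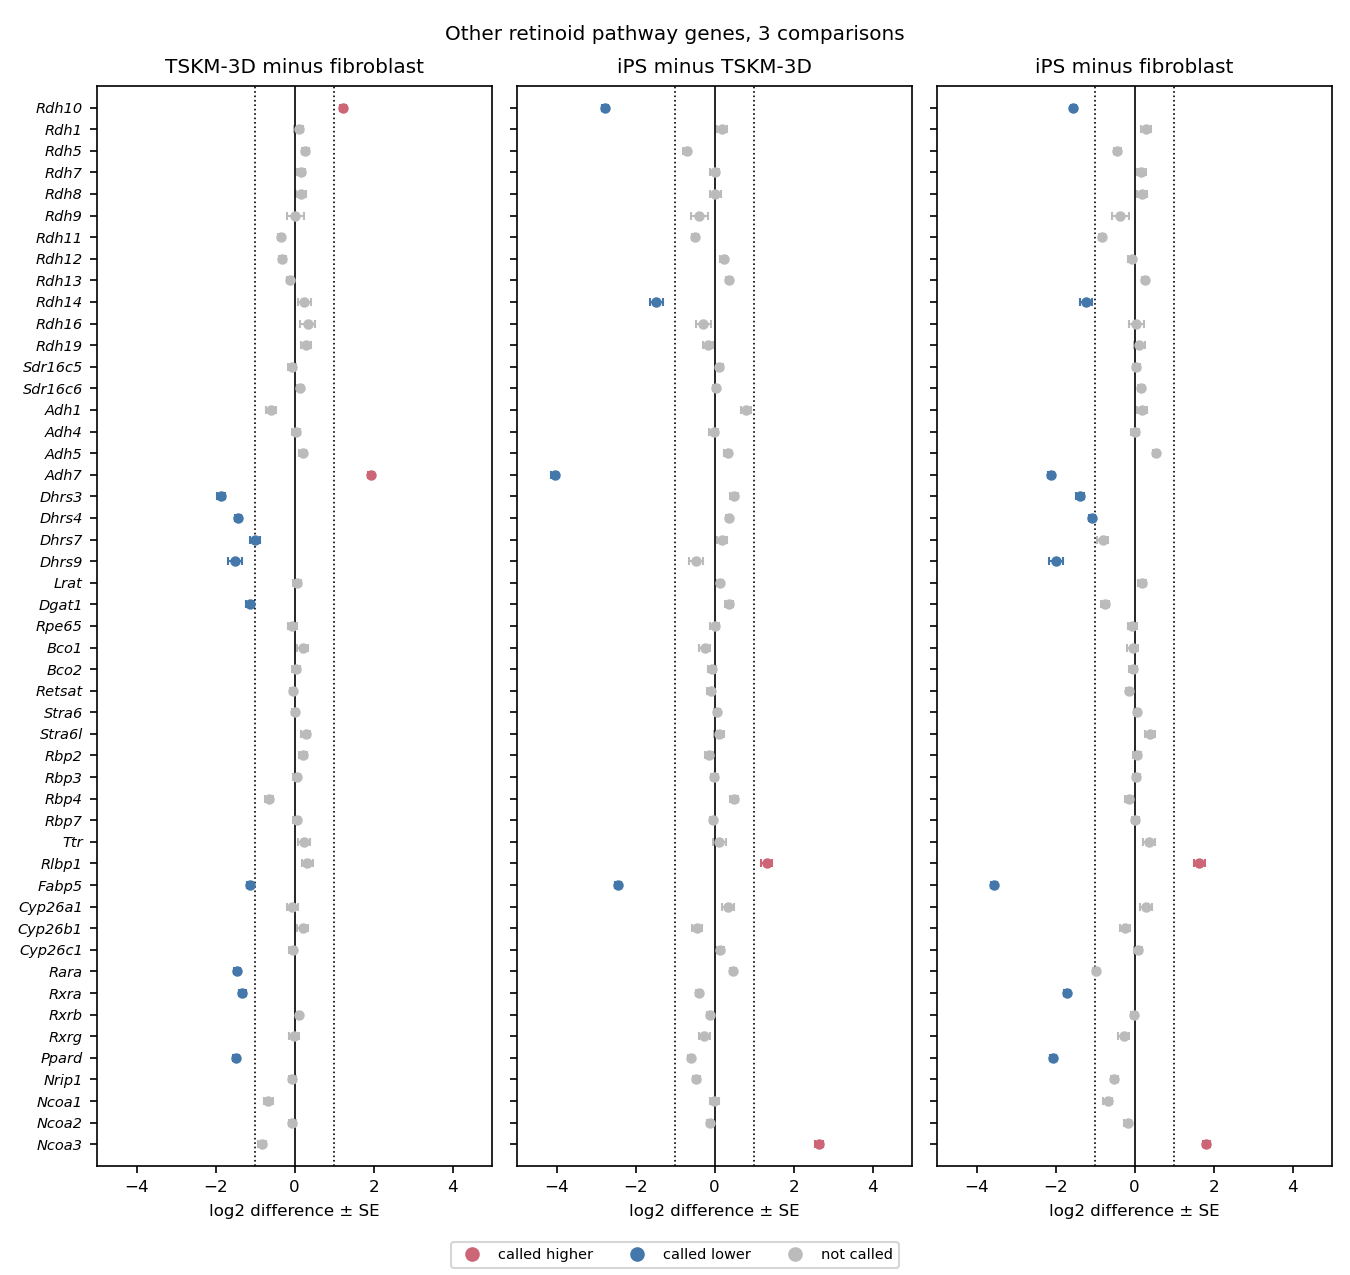
Log2 differences (x axis, points ± SE from limma) of the 49 other retinoid pathway genes (y axis) in the 3 comparisons. Red points were called higher, blue points lower and grey points neither, and dotted lines mark 2-fold. Rdh10 and Adh7 lie right of the 2-fold line in TSKM-3D minus fibroblast and left of it in iPS minus TSKM-3D.

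In a list of genes known to respond to retinoic acid in other systems, the 2 called at day 3 rose. Calls in iPS cells went both ways. Dhrs3, also induced by retinoic acid but counted with the retinol steps, fell at day 3 (log2 difference -1.87). Of 19 measured targets 2 rose and 0 fell at day 3 against fibroblasts, and 11 had an unadjusted limma p under 0.05 (10.5% higher, against 3.25% of all genes). Those 11 included falls as well as rises, and the list's median log2 difference was 0.04, beside 0.05 over all genes. Rarres1, named for its response to a retinoid, read 8.09, 7.92 and 8.39 on TSKM-3D arrays, against 6.31 on all 3 fibroblast arrays (log2 difference 1.83 ± 0.12 SE; adjusted p = 2.72e-07), and Btg2, an antiproliferative gene that also belongs to the p53 response, rose by 1.38 ± 0.08. Equal fibroblast readings may hide part of the spread of Rarres1. Stra8, the retinoic acid-induced gene of germ cells entering meiosis, Hoxb1 and Tgm2, the tissue transglutaminase gene, differed by 0.07, 0.11 and -0.73 (adjusted p = 0.559, 0.455 and 0.0038).

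In iPS cells against day 3, 2 of the 19 targets rose and 5 fell (10.5% and 26.3%, against 6.48% and 8.57% of all genes; limma). Stra8 read 5.76, 5.40 and 5.54 on iPS arrays, against 4.00, 3.89 and 3.86 on TSKM-3D arrays (log2 difference 1.65 ± 0.10 SE; adjusted p = 4.58e-08), from a dim day-3 reading. Cdx1, a homeobox gene of the posterior embryo, rose by 1.21 ± 0.14. Rarres1 changed by -3.34, the homeobox gene Meis1 by -2.55, the orphan receptor gene Nr2f2 by -2.32 and Btg2 by -2.08 (adjusted p at most 4.47e-08). Against fibroblasts, Nr2f2, Meis1, Meis2 and Rarres1 fell in iPS cells (-3.08, -2.15, -1.78 and -1.51), and Cdx1 and Stra8 rose, by 1.76 and 1.72.

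The wider aldehyde dehydrogenase family did not move with Aldh1a1 and Aldh1a7 as a block. Of 16 relatives 2 rose and 3 fell at day 3 (12.5% and 18.8%, against 3.25% and 7.58% of all genes; limma), and the median difference was 0.07, beside 0.05 over all genes. Aldh3a1, an aldehyde scavenger abundant in the cornea, read 7.90, 8.06 and 8.13 on TSKM-3D arrays, against 5.44, 5.61 and 5.40 on fibroblast arrays (log2 difference 2.55 ± 0.09 SE; adjusted p = 1.78e-09). Aldh6a1, which acts in valine breakdown, rose by 1.86 ± 0.10. Aldh1l2 and Aldh1l1, the mitochondrial and cytosolic formyltetrahydrofolate dehydrogenases of folate metabolism, changed by -2.63 and -1.11, and Aldh3b1 by -1.47. Aldh2, the main mitochondrial enzyme for acetaldehyde, read 10.66, 10.76 and 10.63 in fibroblasts, TSKM-3D and iPS cells. Aldh8a1, which acts on retinaldehyde isomers, read 4.32, 4.34 and 4.33.

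In iPS cells against day 3, 1 of the 16 relatives rose and 3 fell (6.25% and 18.8%, against 6.48% and 8.57% of all genes; limma). Aldh1l1 rose by 1.56 ± 0.09, and Aldh3a1, Aldh18a1, a proline synthesis gene, and Aldh1l2 changed by -2.11, -1.35 and -1.08. Without iPS array 3 Aldh1l2 was not called (-0.96). Against fibroblasts, Aldh1l2, Aldh3b1 and Aldh18a1 fell in iPS cells (-3.71, -2.24 and -2.14), and Aldh1b1, a mitochondrial relative of Aldh2, and Aldh16a1 rose, by 1.44 and 1.16 (adjusted p at most 8.6e-06). Aldh16a1 was not called with equal array medians (0.99), and neither of these rises passed a test against 2-fold (treat, adjusted p = 0.0616 and 0.26).

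Among 14 measured aldo-keto reductases besides Akr1c18, 1 rose and 0 fell at day 3, and 5 had an unadjusted limma p under 0.05 (7.14% higher, against 3.25% of all genes). It was Akr1c14, a steroid reductase, which read 7.65, 6.57 and 7.81 on TSKM-3D arrays, against 4.90, 4.73 and 4.80 on fibroblast arrays (log2 difference 2.53 ± 0.26 SE; adjusted p = 8.93e-06). As for Akr1c18, TSKM-3D array 2 was the lowest of its group and still clear of all fibroblast arrays. In iPS cells against day 3, Akr1c14 changed by -3.27 ± 0.26 and Akr1e1 by -1.23 ± 0.15, and 0 of the 14 rose (adjusted p at most 2.07e-05 for both; 5 at an unadjusted p under 0.05). Between iPS cells and fibroblasts 0 of the 14 were called in either direction in limma, with 7 at an unadjusted p under 0.05. Genes of the Akr1c cluster resemble each other in sequence, and whether their probes cross-react was not tested. Akr1c12, Akr1c13 and Akr1c19 read 3.76, 4.10 and 3.56 in TSKM-3D cells, against 3.69, 4.08 and 3.44 in fibroblasts, and were not called. These 3 rows were dim, at percentiles 7.6 to 18.3 of all rows at these stages. They lie outside the rule for named genes given below.

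**Figure D5:**
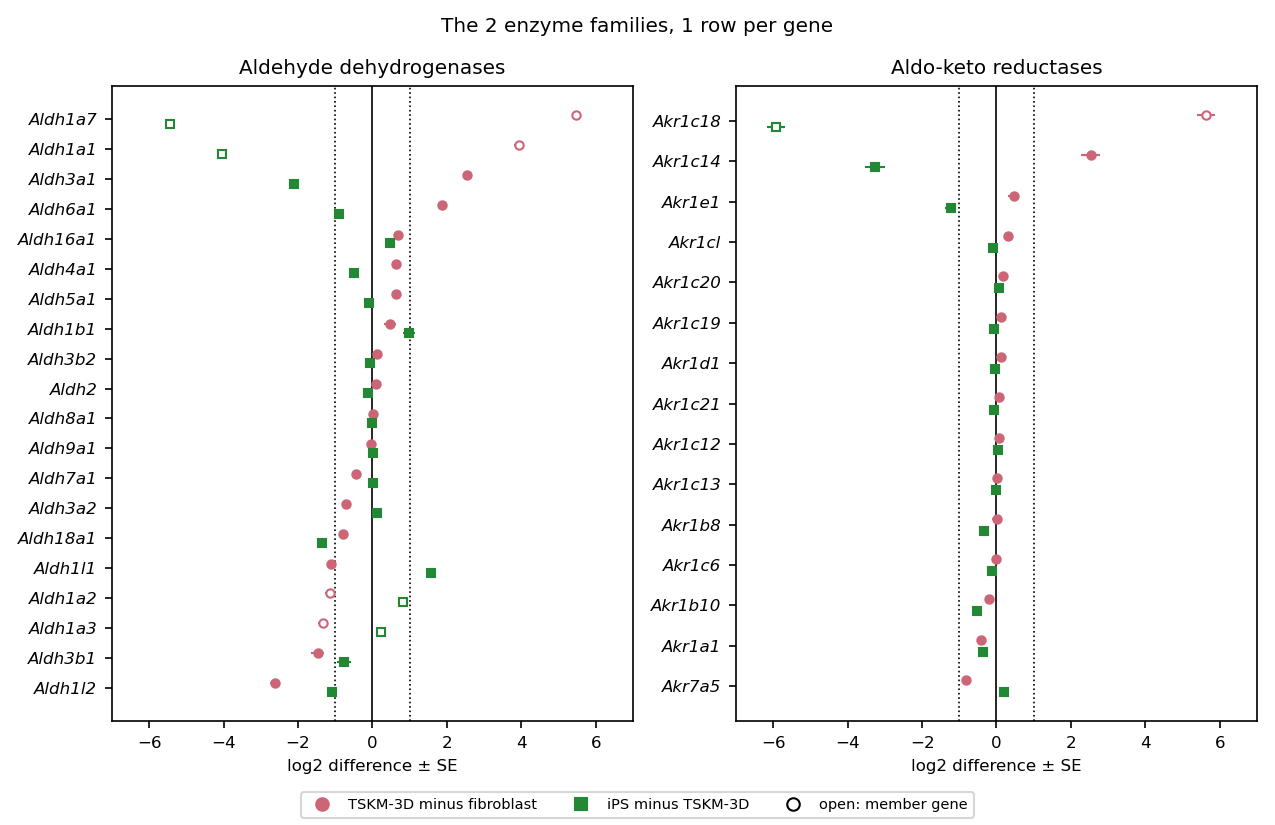
Log2 differences (x axis, ± SE) of all measured aldehyde dehydrogenases (left) and aldo-keto reductases (right), with red circles for TSKM-3D minus fibroblast and green squares for iPS minus TSKM-3D. Open symbols are member genes, which were not tested, and dotted lines mark 2-fold. Aldh1a7, Aldh1a1, Aldh3a1, Akr1c18 and Akr1c14 lie right of 2-fold in the first comparison and left of it in the second, and Aldh1l1 lies the other way round (-1.11 and 1.56).

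Markers of other cell types that express retinaldehyde dehydrogenases were read beside the day-3 values. Of 11 mesothelial markers, 1 (Krt19, at 3.61) rose and 1 (Bnc1, at -1.43) fell between TSKM-3D and fibroblasts (limma), with a mean log2 level of 5.89 to 6.19 on TSKM-3D arrays and 5.70 to 5.80 on fibroblast arrays. The defining markers Msln, Upk3b, Wt1 and Muc16 read 5.997, 5.82, 6.11 and 3.65 in TSKM-3D cells, against 5.63, 5.68, 6.08 and 3.59 in fibroblasts, and were not called. Of 6 hepatocyte markers 0 were called, with 0 at an unadjusted p under 0.05, and Alb read 4.06 in TSKM-3D cells and 4.22 in fibroblasts. Of 8 primitive endoderm markers 0 rose and 2 fell (25%), Gata6 (-1.37) and Dab2 (-2.79). Over all genes 3.25% rose and 7.58% fell by the same rule, and of the mesothelial markers 9.09% each way. Dab2 held exactly the same value on all 3 TSKM-3D arrays, which may hide part of its spread. Gata6 did not pass a test against 2-fold (treat, adjusted p = 0.0891).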

How the data were processed

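Total RNA from 9 samples was hybridised to an Affymetrix mouse whole-transcript array, 1 per sample, after Trizol extraction and biotin labelling, per the labels' protocols. The authors deposited log2 values for 34760 rows, used here unchanged; their normalization is not given in the sources used here. Precision is limited by the number of arrays. The platform's probe table named the rows: 21640 carried 1 symbol, 1321 several (not used) and 11799 were unlisted. Of the 1-symbol rows 21553 matched GRCm38.p6 by gene identifier. Each of 19937 genes was represented by its brightest row over the 9 arrays. All 3 groups, taken from the titles, entered 1 limma model (version 3.58.1, R 4.3.3; lmFit and eBayes), with Benjamini-Hochberg adjustment over all genes. A gene was called at an adjusted p under 0.05 and at least 2-fold. The highest adjusted p past 2-fold was 0.0225, so the fold set the calls. The code of the test was checked on simulated data with independent values and few changed genes. That setting is simpler than these arrays, so it says nothing on the p-values given here. The members, gene lists, named genes and motifs were chosen with earlier results of these data known. Named are all members, fixed pathway genes, up to 4 called genes per list, direction and comparison, and the 3 nearest genes in pattern. Promoter windows are RefSeq's on GRCm38.p6. Tried as alternatives were the mean of a gene's rows, equal array medians, quantile normalization, a filter on dim genes, a test against 2-fold (treat), trend and robust variances, 2-group fits, a replicate block, each array left out, and the third fibroblast array placed with the induced ones.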

Additional observations from a re-analysis of the deposited data

How the results depend on the processing

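Same-numbered arrays did not deviate together (correlations of deviations from the group means from -0.098 to 0.062). No sign of pairing by number was seen, but with 3 arrays per group this cannot show whether the samples were paired. With a replicate block the retinoid pathway list still had 2 genes higher and 9 lower at day 3 against fibroblasts, and no count of a list changed. Tested against 2-fold with treat, the pathway list had 1 higher and 5 lower at day 3 and 1 higher in iPS cells against day 3. Under treat the targets had 1 higher in iPS cells against day 3, the aldehyde dehydrogenase relatives 1 lower at day 3 and 0 higher in iPS cells against fibroblasts, and the aldo-keto reductases 1 lower in iPS cells against day 3. In these lists the calls lost under treat at day 3 were Rdh10, Dhrs7, Dhrs9, Dgat1, Fabp5, Aldh1l1 and Aldh3b1. In iPS cells against day 3 they were Rdh14, Rlbp1, Cdx1, Aldh1l2 and Akr1e1. In iPS cells against fibroblasts they were Rdh14, Dhrs4, Aldh1b1 and Aldh16a1. Of the markers named above, Twist1 and Gata6 were no longer called at day 3 (treat, adjusted p = 0.383 and 0.0891). Without dim genes (16683 of 19937 kept, all 9 members among them) Stra8 was not tested, which left 1 target higher in iPS cells against day 3 and 1 against fibroblasts. With equal array medians 1 aldehyde dehydrogenase relative was higher in iPS cells against fibroblasts, and the median of all genes was then -0.13 in iPS cells against day 3 and -0.12 against fibroblasts, beside -0.01 and 0.05 as deposited. Quantile normalization left 6 pathway genes lower at day 3. With the third fibroblast array placed among the induced arrays, which mixes unlike arrays, 0 genes of any list and 0 of all genes were called at day 3 (5359 of all genes at an unadjusted p under 0.05 in limma), 0 members were 2-fold lower at day 3, and 2 aldehyde dehydrogenase relatives were higher in iPS cells against day 3. The 3 members high at day 3 then differed from fibroblasts by 3.01 (Aldh1a1), 4.09 (Aldh1a7) and 4.22 (Akr1c18). Leaving out each array in turn gave 8 to 9 pathway genes lower at day 3, 9 to 10 lower in iPS cells against fibroblasts, and, for aldehyde dehydrogenase relatives in iPS cells against day 3, 1 to 2 higher and 2 to 4 lower. Targets lower in iPS cells numbered 5 to 6 against day 3 and 4 to 5 against fibroblasts. Without iPS array 1 or TSKM-3D array 2, Aldh1b1 was the second one higher (1.13 and 1.07, against 0.97 with all arrays). Members 2-fold lower at day 3 numbered 2 to 3. No result at or past 2-fold reversed. Probe sequences and signal over background were not used here, which limits dim readings.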

Other observations

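The remaining members had these nearest genes in pattern, by the same distance over the 9 arrays. Aldh1a2 was nearest to Rab15 (0.39), the mitotic kinase gene Cdk1 (0.42) and Slc9a3r2 (0.42). Aldh1a3 was nearest to Fancf (0.28), Kcnn4 (0.30) and Slc1a6 (0.32). Rarg was nearest to Pip4k2b (0.20), Ms4a6d (0.23) and Tmem189 (0.23). Crabp2 was nearest to Nr3c1 (0.30), the glucocorticoid receptor gene, then Htr1b (0.31) and the lamin gene Lmna (0.34). Nr3c1 averaged 8.42 in fibroblasts, 9.04 in TSKM-3D cells and 6.69 in iPS cells. Rarb, nearly level, was nearest to Zbtb48 (0.15), Krt4 (0.15) and Ranbp3l (0.16).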
